A study of Mus musculus with 14 samples.

Results

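Neurons given intact proteasome-derived peptides while their NMDA receptors were blocked were compared with neurons given the same peptides after protease cleavage. The comparison used 6 of the 14 libraries of the study, 3 in each group, chosen by their treatment labels and not by any measured value. All libraries were ribosome-depleted total RNA from primary cortical neuron cultures of C57BL/6 WT mice after 12 days in vitro, treated for 1 h and sequenced as paired-end reads of 100 bases. One group received NMP peptides at 4% by volume together with 100 µM APV. The other received NMP peptides cleaved by proteinase K (PK-cleaved), also at 4% by volume. The remaining groups served as context: NMP peptides alone at 4% by volume (3 libraries), bicuculline at 20 µM (3 libraries) and 1% DMSO (2 libraries). A DMSO content is given for the DMSO group only. A group given APV by itself was not analysed here. Blocking the receptor and giving intact in place of cleaved peptides therefore differ together in this comparison and cannot be told apart.

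The neuronal membrane proteasome (NMP) is a proteasome complex at the plasma membrane of neurons that degrades proteins and releases peptides to the outside of the cell. NMDA receptors are glutamate-gated channels that let calcium into the neuron when glutamate binds and the membrane is depolarised, and APV blocks them by competing with glutamate. Calcium entry starts kinase cascades that induce immediate-early genes such as Fos and Npas4 and, after them, genes that act at synapses. Bicuculline blocks GABA-A receptors, lifts inhibition and drives bursts of activity in such cultures.

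Values were deposited as quantile-normalised log2 signals, with a shared median of 2.19 and between 15824 and 16231 features with a value in a library. Read depth behind them is unknown, quantile normalisation hides any change in total RNA, and fewer cells of a type and less RNA per cell cannot be told apart in bulk samples. The study calls its replicates biological but does not name the replicated unit (a culture, animal or day), and the p-values cover the spread among these samples alone. Neuronal markers were present, with a summed linear signal of 493 to 553 for 15 excitatory markers in NMP peptides plus APV, against 497 to 555 in PK-cleaved peptides. The 16 inhibitory markers summed to 661 to 685 in NMP peptides plus APV, against 698 to 724 in PK-cleaved peptides, and the 18 astrocyte markers to 982 to 1030, against 865 to 925. Microglia markers were low in both groups, at 7.63 to 10.7 with NMP peptides plus APV and 8.21 to 9.88 with PK-cleaved peptides. Oligodendrocyte lineage markers (14 genes) summed to 151 to 186 with NMP peptides plus APV, against 144 to 145 with PK-cleaved peptides, and proliferating cell markers (10 genes) to 92.9 to 105, against 85.3 to 92.1. Markers of neurons and of astrocytes were thus well detected, with lower sums for the other types. No marker of these lists was called, but untested genes could not be called. Not tested were 12 of 13 microglia, 12 of 12 endothelial and mural and 6 of 14 oligodendrocyte lineage markers. The groups did not overlap in the inhibitory, astrocyte, oligodendrocyte lineage and proliferating cell sums. Of these the inhibitory one was lower and the others higher with NMP peptides plus APV. The endothelial and mural sum, near the floor, was also lower without overlap, at 1.59 to 1.97 with NMP peptides plus APV, against 2.03 to 2.25. The part of these cell types in the gene differences below was not tested.

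Genes differed in both directions between NMP peptides plus APV and PK-cleaved peptides. The limma test called 151 of 10877 tested genes (1.39%) at an adjusted p under 0.05, 66 higher (0.607%) and 85 lower (0.781%) with NMP peptides plus APV. Some genes of G-protein-coupled receptors and potassium channel subunits were among those lower. So were the histone deacetylase genes Hdac9 and Hdac5 and the natriuretic peptide gene Nppc. Elk1, Slc44a5, Hrk and Prnp were among those higher. Differences were moderate in size. The median of the called genes was 0.47 in those higher and, as an absolute value, 0.61 in those lower on the log2 scale, and 3 higher and 9 lower genes passed 1. Over all tested genes the median log2 difference was -0.02 and the median SE 0.10. The 3 libraries a side did not overlap in all 151 called genes, and in 20.2% of all tested genes (8.84% with APV above and 11.4% with APV below). The number of calls rested on few libraries. It was 58, 68 and 57 without NMP peptides plus APV replicates 1, 2 and 3, and 53, 127 and 70 without PK-cleaved replicates 1, 2 and 3. Of the 151 genes, 39 were called in each of these 6 fits, 12 higher and 27 lower. With the stricter filter on low levels, which left 7252 genes tested, the split was 44 higher and 36 lower. Without PK-cleaved replicate 2 it was 68 higher and 59 lower. Without NMP peptides plus APV replicate 1 or 3 it was 17 and 41, or 18 and 39.

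**Figure D1:**
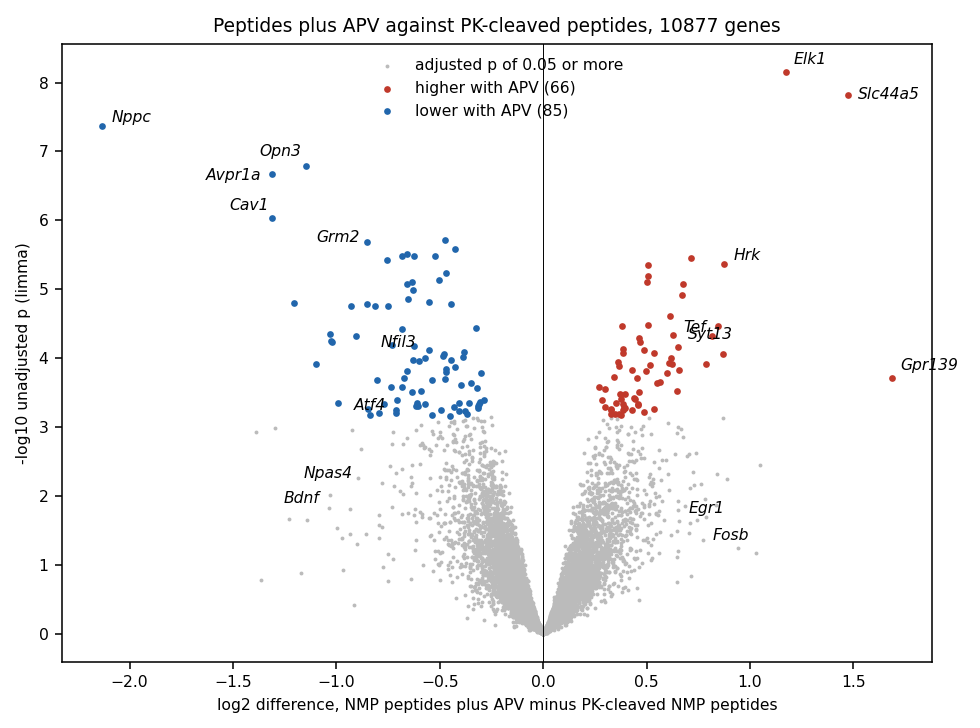
Each point is 1 of 10877 tested genes. The x axis is the log2 difference, NMP peptides plus APV minus PK-cleaved NMP peptides, and the y axis is -log10 of the unadjusted limma p. Red points are the 66 genes called higher, blue points the 85 called lower and grey points the rest. Elk1 and Slc44a5 stand at the top right and Nppc at the far left at -2.13, while Npas4, Bdnf, Egr1 and Fosb lie among the grey points.

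Elk1 had the smallest adjusted p of all genes. It encodes an ETS-domain transcription factor that is phosphorylated by MAP kinases and acts with serum response factor on immediate-early promoters (chromosome X, 20933395 to 20950608, GRCm38). Elk1 measured 4.48, 4.42 and 4.59 on the log2 signal scale in NMP peptides plus APV, against 3.20, 3.23 and 3.55 in PK-cleaved peptides. The lowest library with APV thus lay well above the highest PK-cleaved library, a 2.25-fold difference (log2 difference 1.17, SE 0.10, limma adjusted p = 7.64e-05). All other groups stood near the PK-cleaved level, with means of 3.25 ± 0.03 (SD, n = 3) for NMP peptides alone and 3.30 for bicuculline, and 3.42 for DMSO. Elk1 and Hrk were the genes called in every alternative fit that was run. The stricter filter on low levels left 7252 genes tested, so genes that it took out could not be called in every fit.

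Slc44a5 encodes a choline transporter-like membrane protein (chromosome 3, 153973436 to 154271747). Its values were 3.30, 3.08 and 3.24 in NMP peptides plus APV, against 1.50, 1.78 and 1.91 in PK-cleaved peptides. Every library with APV exceeded every PK-cleaved library by more than the spread inside either group (2.78-fold, log2 difference 1.47, SE 0.13, adjusted p = 8.24e-05). Hrk, which encodes a BH3-only member of the Bcl2 family that promotes cell death, measured 5.32, 5.43 and 5.16 with NMP peptides plus APV, against 4.37, 4.38 and 4.54 with PK-cleaved peptides. This was 1.83-fold (log2 difference 0.87, SE 0.12, adjusted p = 0.00287) with no overlap. It was the 1 called gene among 15 tested Bcl2 family and cell death genes, whose median was 0.03, beside 1.39% called over all tested genes. Prnp, the prion protein gene (chromosome 2, 131909928 to 131938436), was chosen for mention after its values were seen. It measured 7.62, 7.43 and 7.64 with NMP peptides plus APV, against 7.04, 7.08 and 7.05 with PK-cleaved peptides. The PK-cleaved libraries were nearly equal and the libraries with APV all higher (1.42-fold, adjusted p = 0.00287). Lmln, a metallopeptidase gene, Prkab2, which encodes a regulatory subunit of AMP-activated kinase, and Plcxd2 rose by 0.72, 0.68 and 0.67 on the log2 scale. Counting Elk1, these 7 genes were called in all 6 fits that left out a library.

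Gpr139 had the highest log2 difference of all but a less certain call. It encodes an orphan G-protein-coupled receptor of the brain (chromosome 7, 119140747 to 119184538). Its values were 2.08, 1.85 and 1.74 with NMP peptides plus APV, against -0.13, -0.03 and 0.76 with PK-cleaved peptides. PK-cleaved replicate 3 stood above the other PK-cleaved libraries, yet below all 3 libraries with APV (3.22-fold, log2 difference 1.69, SE 0.34, adjusted p = 0.0248). Gpr139 was called only without PK-cleaved replicate 3 among the 6 fits that left out a library, and its adjusted p ranged from 0.0246 to 0.122. Smg1 encodes the kinase that phosphorylates a helicase in nonsense-mediated mRNA decay. Its values were 3.48, 3.35 and 3.32 with NMP peptides plus APV, against 2.18, 2.77 and 2.66 with PK-cleaved peptides. PK-cleaved replicate 1 was the lowest of the 6 libraries (1.80-fold, log2 difference 0.85, SE 0.14, adjusted p = 0.00993), and without NMP peptides plus APV replicate 1 the adjusted p was 0.0515. Upf2, a further gene of that decay pathway, rose by 0.54 on the log2 scale (adjusted p = 0.0161) and was not called without NMP peptides plus APV replicates 2 or 3 or PK-cleaved replicate 1 (adjusted p up to 0.081). It was also chosen after its values were seen.

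Slc24a4, Slc4a8, Otof, Syt13, Creg2 and Cntn2 also rose. Slc24a4, a potassium-dependent sodium-calcium exchanger gene, had a log2 difference of 0.87 (SE 0.16, adjusted p = 0.0161). Slc4a8, a sodium-driven chloride-bicarbonate exchanger gene, had 0.79 (SE 0.15, adjusted p = 0.0188). Both lost their call without NMP peptides plus APV replicates 1 or 3 or PK-cleaved replicate 1, with adjusted p up to 0.0746 and 0.0908. Otof, whose product otoferlin is a calcium sensor for vesicle fusion in inner hair cells, had 0.82 (adjusted p up to 0.0661 without NMP peptides plus APV replicate 3 or PK-cleaved replicate 1). Syt13, an atypical synaptotagmin gene, was the 1 called gene of 23 tested synaptic vesicle and synaptotagmin genes, 14 of which lay above 0, with a median of 0.11. Over all tested genes 1.39% were called and 4951 of 10877 lay above 0. Syt13 measured 4.35, 4.23 and 4.46 with NMP peptides plus APV, against 3.76, 3.82 and 3.49 with PK-cleaved peptides. The groups did not overlap for Syt13 (1.57-fold, limma adjusted p = 0.0145). Without NMP peptides plus APV replicates 1 or 3 or PK-cleaved replicate 3 its adjusted p reached 0.0749. Creg2 and Cntn2, a secreted glycoprotein gene and a cell adhesion gene, rose by 0.66 and 0.65. Creg2 was called in 1 of the 6 fits without a library (PK-cleaved replicate 2 left out, adjusted p up to 0.0893 in the others). Cntn2 was not called without NMP peptides plus APV replicates 1 or 3 or PK-cleaved replicates 1 or 3 (adjusted p up to 0.138).

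The promoters of Elk1 and Tef are shown as members of the higher group that hold the palindrome CACGTG, the core E-box read by clock and other basic helix-loop-helix factors, and that of Nppc as the gene with the largest fall. Each window holds 300 bases around the annotated start, 5′ to 3′ on the gene's strand, from RefSeq on GRCm38, and capitals mark a match. The Elk1 window is chrX:20950559-20950858 on the minus strand, the Tef window chr15:81802423-81802722 on the plus strand, and the Nppc window chr1:86670524-86670823 on the minus strand.
Elk1: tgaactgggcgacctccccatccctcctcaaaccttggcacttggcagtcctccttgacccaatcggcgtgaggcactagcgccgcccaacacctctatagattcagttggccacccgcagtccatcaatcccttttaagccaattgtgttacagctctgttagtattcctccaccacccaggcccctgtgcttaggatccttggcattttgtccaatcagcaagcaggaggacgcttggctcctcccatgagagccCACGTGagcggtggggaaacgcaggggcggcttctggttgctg
Tef: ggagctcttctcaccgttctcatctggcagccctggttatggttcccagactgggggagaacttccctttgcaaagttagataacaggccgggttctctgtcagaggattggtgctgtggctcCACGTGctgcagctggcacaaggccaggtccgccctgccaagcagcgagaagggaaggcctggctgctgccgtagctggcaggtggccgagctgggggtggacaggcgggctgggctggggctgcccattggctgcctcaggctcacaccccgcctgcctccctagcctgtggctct
Nppc: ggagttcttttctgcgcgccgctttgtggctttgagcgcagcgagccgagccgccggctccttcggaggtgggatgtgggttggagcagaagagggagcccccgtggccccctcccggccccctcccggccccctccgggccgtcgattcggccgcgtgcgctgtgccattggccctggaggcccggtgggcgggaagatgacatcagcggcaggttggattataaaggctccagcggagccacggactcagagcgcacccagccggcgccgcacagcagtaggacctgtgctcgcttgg
Nfil3, described below as a called gene that bicuculline raised, is shown with its CGTCA in capitals (chr13:52980990-52981289, minus strand).
Nfil3: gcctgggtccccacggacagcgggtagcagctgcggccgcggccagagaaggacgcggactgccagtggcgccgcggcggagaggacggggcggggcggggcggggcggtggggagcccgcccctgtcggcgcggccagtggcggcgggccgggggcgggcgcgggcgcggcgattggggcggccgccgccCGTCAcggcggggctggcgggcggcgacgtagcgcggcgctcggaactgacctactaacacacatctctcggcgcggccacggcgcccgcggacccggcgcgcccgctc
Both strands were searched for CACGTG, for TGANTCA, for TGACGTCA, the full cyclic AMP response element, and for CGTCA, its core, which every TGACGTCA contains. RefSeq promoters were matched for 44 of the 66 higher and 58 of the 85 lower genes. CACGTG stood in 13 of 55 promoters (23.6%) of the higher genes and in 3 of 75 (4%) of the lower genes, while 10.1% of the promoters of tested genes and 7.15% of all promoters of this length held it. CGTCA stood in 27.3% of the promoters of higher genes and 28% of those of lower genes, and in 32% of those of tested genes. TGACGTCA stood in 0 of 55 and 2 of 75 promoters, and TGANTCA in 2 of 55 and 4 of 75. No match was found in the Nppc window, which says only that these letters are not in it. The called sets also differed in base composition, as given below, and these shares are a description without a test.

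Nppc fell more than any other gene. It encodes C-type natriuretic peptide, a ligand of a guanylyl cyclase receptor (chromosome 1, 86666293 to 86670573). Nppc measured 0.11, -0.35 and -0.05 with NMP peptides plus APV, against 2.42, 1.79 and 1.91 with PK-cleaved peptides. The libraries with APV lay far below all PK-cleaved libraries, a 4.39-fold lower level (log2 difference -2.13, SE 0.20, adjusted p = 0.000156). NMP peptides alone averaged 2.01 ± 0.16 (SD, n = 3), close to PK-cleaved peptides at 2.04 ± 0.34 (SD, n = 3). The log2 difference of NMP peptides alone against PK-cleaved peptides was -0.03 (adjusted p = 1). Bicuculline averaged 3.05, against 2.18 in DMSO, a difference that was not called (0.87, adjusted p = 0.24).

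Several G-protein-coupled receptor genes were called lower. Of 20 tested genes on the list of peptide-binding and orphan receptors, 5 fell and 1, Gpr139, rose, with a median of -0.19. Over all tested genes 0.781% were called lower and 0.607% higher. The list was chosen with earlier results of these data known, so its count of calls is a description only. Avpr1a, a vasopressin receptor gene (chromosome 10, 122448499 to 122453453), measured -0.05, 0.12 and -0.11 with NMP peptides plus APV, against 1.21, 1.43 and 1.26 with PK-cleaved peptides. The 2 groups were tight and well apart (2.48-fold lower, log2 difference -1.31, SE 0.14, adjusted p = 0.00046). Opn3, an opsin gene, measured 0.22, 0.46 and 0.04 with NMP peptides plus APV, against 1.32, 1.42 and 1.42 with PK-cleaved peptides. That is 2.22-fold lower without overlap (adjusted p = 0.000435), though 24.1% of its exon bases overlap those of Chml, so reads could be shared. Npy1r, a neuropeptide Y receptor gene, fell by 0.63 and Crhr1, a corticotropin-releasing hormone receptor gene, by 0.59. Npy1r was not called without NMP peptides plus APV replicates 1 or 2 or PK-cleaved replicate 1 (adjusted p up to 0.0728). Crhr1 was not called without any 1 of the 6 libraries (adjusted p 0.0615 to 0.131).

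Grm2, Nmbr and Gpr6, receptor genes outside that list, were called lower. Grm2 encodes a metabotropic glutamate receptor that lowers transmitter release (chromosome 9, 106644534 to 106656109). It measured 1.38, 1.66 and 1.50 with NMP peptides plus APV, against 2.44, 2.45 and 2.20 with PK-cleaved peptides. All APV libraries lay below the lowest PK-cleaved library (1.80-fold lower, log2 difference -0.85, SE 0.11, adjusted p = 0.00271). It was the 1 called gene of 7 metabotropic glutamate receptors, whose median was 0.03, beside 1.39% called over all tested genes. Nmbr, the neuromedin B receptor gene, had a log2 difference of -1.03 (adjusted p = 0.0118, and 0.0673 without PK-cleaved replicate 1). Gpr6, an orphan receptor gene, had -0.99 (adjusted p = 0.0422). It was not called without NMP peptides plus APV replicates 1 or 2 or PK-cleaved replicates 1 or 2 (adjusted p up to 0.178). Trhr, the thyrotropin-releasing hormone receptor gene, went the other way and rose by 0.61 (adjusted p = 0.0188), and was chosen after its values were seen. Without NMP peptides plus APV replicates 1, 2 or 3 or PK-cleaved replicate 3 its adjusted p reached 0.0827.

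Adcy8, Gnb4, Ngef and Elmo1 were called lower, and were chosen for mention after their values were seen. Adcy8, which encodes a calcium-stimulated adenylyl cyclase, measured 2.05, 1.76 and 2.04 with NMP peptides plus APV, against 2.63, 2.55 and 2.65 with PK-cleaved peptides. All APV libraries were lower (1.58-fold, log2 difference -0.66, adjusted p = 0.00382). Gnb4, a G-protein beta subunit gene, measured 3.47 in each APV library, against 3.89, 3.93 and 3.87 with PK-cleaved peptides. The gap of -0.43 was small but several times the spread inside either group (SE 0.06, adjusted p = 0.00271). Ngef, an exchange factor gene for small GTPases, fell by 0.47 and Elmo1, which acts in Rac activation, by 0.68 (adjusted p = 0.00271 and 0.0102). All 4 genes were called in each of the 6 fits that left out a library.

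Potassium channel genes were lower in part. Of 25 tested genes on the potassium channel list, 2 fell and 0 rose, and the median was -0.08. Over all tested genes 0.781% were called lower and 0.607% higher. Both called genes encode modulatory subunits that form no channels on their own. Kcnv1 measured 0.97, 0.97 and 1.09 with NMP peptides plus APV, against 1.77, 1.83 and 1.69 with PK-cleaved peptides. Kcng1 measured 2.23, 2.19 and 2.08 with NMP peptides plus APV, against 2.71, 2.89 and 2.87 with PK-cleaved peptides. Neither gene overlapped between the groups (1.69-fold and 1.58-fold lower, adjusted p = 0.00271 for each). Outside the list, and chosen after their values were seen, Kcnn2, a calcium-activated channel gene, fell by 0.66 (adjusted p = 0.0212) and Kcnip4, which encodes an auxiliary protein of A-type channels, by 0.64 (adjusted p = 0.0332). Kcnv1 and Kcng1 were called in all 6 fits that left out a library. Kcnn2 was not called without NMP peptides plus APV replicates 1 or 3 or PK-cleaved replicates 1 or 2 (adjusted p up to 0.106), and Kcnip4 in none of the 6 (0.0577 to 0.148). Of 24 tested sodium and calcium channel genes 0 were called. Their median was 0.13, and 19 of the 24 lay above 0, beside 4951 of the 10877 tested genes. The smallest p belonged to Cacna1d (log2 difference 0.40, limma adjusted p = 0.157).

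**Figure D2:**
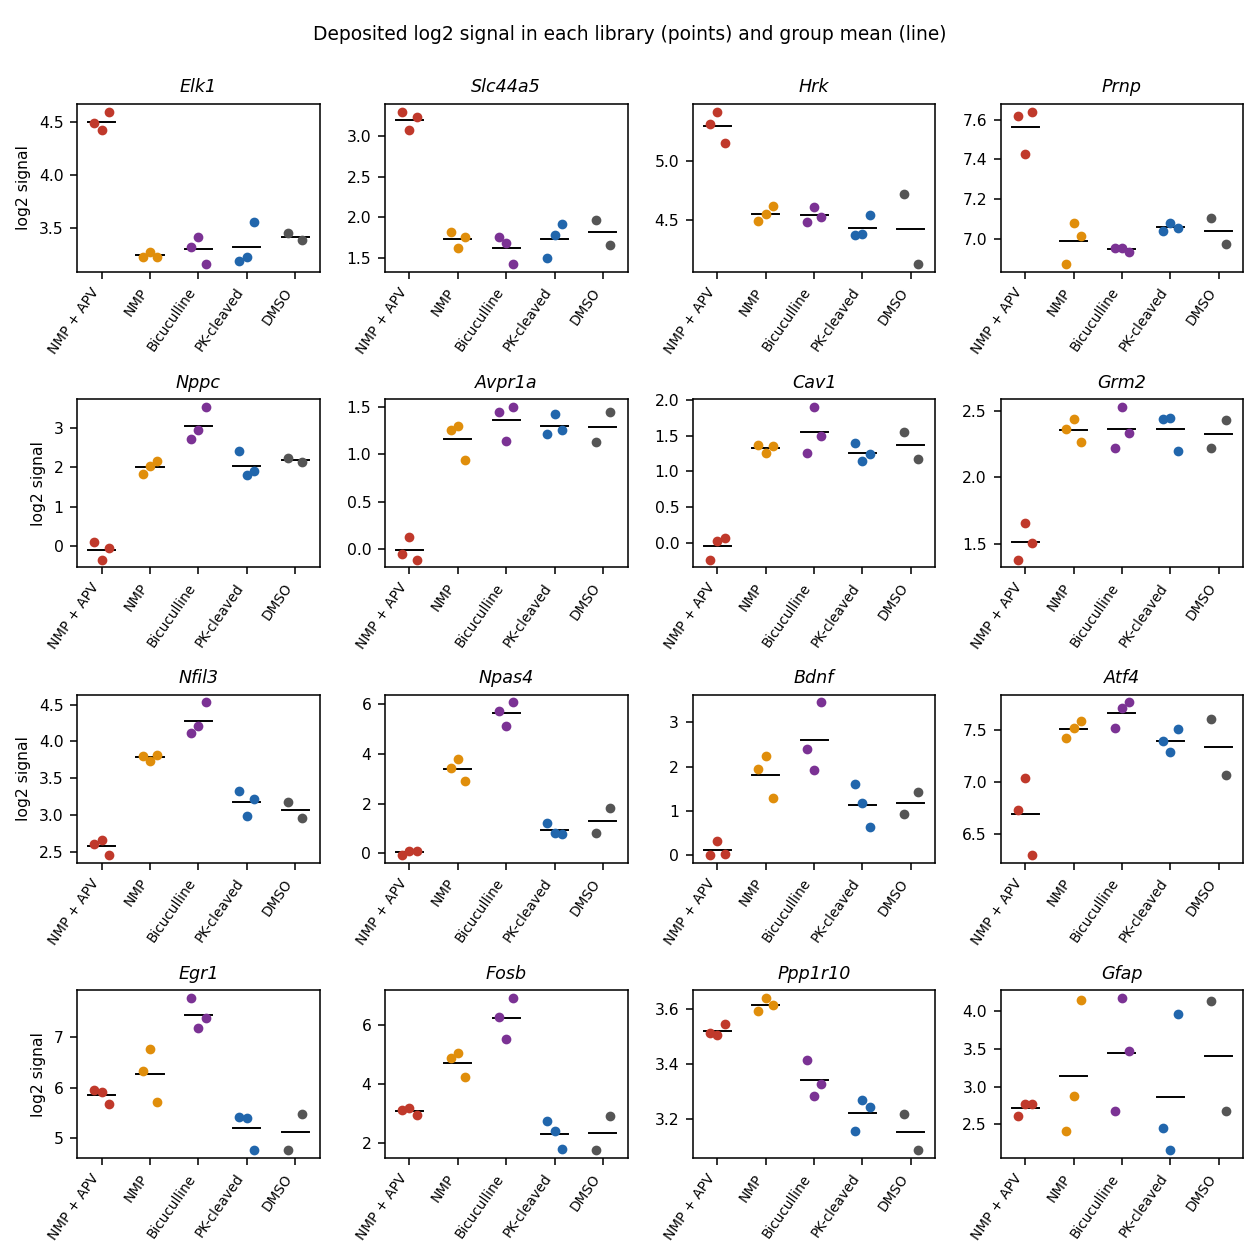
Deposited log2 signal (y axis) of 16 genes in each of 14 libraries, as points, with the group mean as a line and the groups along the x axis. For Elk1, Slc44a5, Hrk and Prnp the 3 libraries with APV lie above all others, and for Nppc, Avpr1a, Cav1, Grm2 and Nfil3 below all others. Npas4, Bdnf, Egr1 and Fosb have their highest group mean in bicuculline, and Gfap is scattered within every group except NMP peptides plus APV.

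Cav1 and Has3 act at the cell surface and in the matrix. Cav1 encodes caveolin 1, a scaffold of caveolae (chromosome 6, 17306335 to 17341328). It measured -0.24, 0.02 and 0.07 with NMP peptides plus APV, against 1.40, 1.14 and 1.24 with PK-cleaved peptides. The groups were apart by many times their spread (2.48-fold lower, log2 difference -1.31, SE 0.16, adjusted p = 0.00166). It was the 1 called gene of 4 tested caveolae genes, whose median was -0.10, beside 1.39% called over all tested genes. Cav1 is abundant in endothelium, whose 12 markers were near the floor, at a summed signal of 1.59 to 1.97 with NMP peptides plus APV and 2.03 to 2.25 with PK-cleaved peptides, with 0 of the 12 passing the filter on low levels. Their part in the Cav1 difference was not tested. Has3, a hyaluronan synthase gene, measured -0.22, -0.70 and 0.06 with NMP peptides plus APV, against 0.86, 0.87 and 1.01 with PK-cleaved peptides. NMP peptides plus APV replicate 2 was the lowest, and no library overlapped (2.31-fold lower, adjusted p = 0.00567). Ctgf, a secreted matrix protein gene and serum response target, fell by 0.79 (adjusted p = 0.0482), and was called in 1 of the 6 fits without a library (NMP peptides plus APV replicate 1 left out, adjusted p up to 0.17 in the others). Elk1 and Ctgf were the called genes of 14 ETS and serum response genes, with a median of 0.04, beside 1.39% called over all tested genes.

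Hdac9, Hdac5, Pmepa1 and Smad7 were among the lower genes. Hdac9, a class IIa histone deacetylase gene, measured 1.15, 1.10 and 1.37 with NMP peptides plus APV, against 2.13, 2.31 and 1.97 with PK-cleaved peptides. This was 1.90-fold lower without overlap (log2 difference -0.93, adjusted p = 0.00567). Hdac5, of the same class and named after its values were seen, measured 4.01, 4.03 and 4.03 with NMP peptides plus APV, against 4.37, 4.38 and 4.48 with PK-cleaved peptides. The difference of -0.39 exceeded the narrow spread of both groups (adjusted p = 0.017), and the adjusted p reached 0.0792 without NMP peptides plus APV replicates 1, 2 or 3 or PK-cleaved replicate 3. Pmepa1 and Smad7 act as feedback inhibitors of TGF-beta signalling, and were also chosen after their values were seen. Pmepa1 fell by 0.65 (adjusted p = 0.00559) and Smad7 by 0.61 (adjusted p = 0.0432). Smad7 was called in 1 of the 6 fits without a library (NMP peptides plus APV replicate 1 left out, adjusted p up to 0.156 in the others).

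Rem2, Stac, Filip1, Mylip, Lurap1 and Rassf3 were among the lowest called genes. Rem2, a GTPase gene regulated by activity whose product limits calcium channels, measured 1.67, 2.06 and 1.59 with NMP peptides plus APV, against 3.01, 2.80 and 2.59 with PK-cleaved peptides. The groups did not overlap (2.04-fold lower, adjusted p = 0.0133), but the call was lost without NMP peptides plus APV replicates 1 or 3 or PK-cleaved replicate 1 (adjusted p up to 0.0762). Stac, which encodes an adaptor of calcium channels, had a log2 difference of -0.85 (adjusted p = 0.00567) and was called in all 6 fits. Filip1, a filamin regulator gene, had -0.91 (adjusted p = 0.0119, up to 0.0544 without NMP peptides plus APV replicates 1 or 2 or PK-cleaved replicate 3). Mylip, a ubiquitin ligase gene, had -1.02 (adjusted p = 0.0133, and 0.0583 without PK-cleaved replicate 3). Lurap1 had -1.10 (adjusted p = 0.0188), with 10.9% of its exon bases overlapping Pomgnt1, and Rassf3 had -0.85 (adjusted p = 0.0449). Both were called only without PK-cleaved replicate 3 among the 6 fits, with adjusted p up to 0.0909 and 0.169 in the others. Rnd1, a small GTPase gene, Plekho1 and the synaptic organiser gene Cbln1 fell by 0.47, 0.48 and 0.41, and were chosen after their values were seen. They were called in 2, 2 and 0 of the 6 fits without a library, with adjusted p up to 0.102, 0.113 and 0.147. Prkacb, a catalytic subunit gene of protein kinase A chosen likewise, rose by 0.38 (adjusted p up to 0.0802 without NMP peptides plus APV replicates 1 or 3 or PK-cleaved replicate 1).

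Immediate-early transcription factors were not called in either direction. Of 21 tested, 9 had positive and 12 negative log2 differences, beside 4951 and 5926 of the 10877 tested genes. The median was -0.05, in a range from -1.23 for Atf3 to 0.77 for Fosb. Npas4, the activity-dependent factor of neurons, measured -0.07, 0.11 and 0.08 with NMP peptides plus APV, against 1.21, 0.82 and 0.77 with PK-cleaved peptides. The groups did not overlap, yet the log2 difference of -0.89 missed the threshold (SE 0.27, adjusted p = 0.141). Fos measured 4.88, 5.01 and 4.46 with NMP peptides plus APV, against 4.57, 4.29 and 3.90 with PK-cleaved peptides. Fosb measured 3.12, 3.16 and 2.93 with NMP peptides plus APV, against 2.72, 2.38 and 1.80 with PK-cleaved peptides. Fos overlapped between the groups and Fosb did not, at log2 differences of 0.52 (SE 0.25, adjusted p = 0.325) and 0.77 (SE 0.35, adjusted p = 0.302). Egr1 measured 5.94, 5.92 and 5.67 with NMP peptides plus APV, against 5.42, 5.40 and 4.75 with PK-cleaved peptides. All 3 APV libraries were above, at 0.66 (SE 0.26, adjusted p = 0.24). Egr2 had 0.71, Junb 0.56 and Nr4a1 0.48, while Egr4 had -0.38 and Jund, with the smallest p of the list, -0.47 (adjusted p = 0.11). For Arc, which encodes a synaptic cytoskeletal protein, the difference was 0.05 (SE 0.34, adjusted p = 0.961).

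Some genes of synaptic and secreted products of activity were called. Of 27 tested activity-regulated effectors, 1 rose and 2 fell, beside 0.607% higher and 0.781% lower over all tested genes. Of the 27, 19 lay below 0 and the median was -0.30. Over all tested genes 5926 of 10877 lay below 0, with a median of -0.02. Nptx2, a pentraxin gene whose product gathers AMPA receptors, fell along with Nppc, and measured 2.14, 1.92 and 1.82 with NMP peptides plus APV, against 2.84, 2.75 and 2.49 with PK-cleaved peptides. It was 1.66-fold lower without overlap (adjusted p = 0.0301) and was called in 1 of the 6 fits without a library (PK-cleaved replicate 3 left out, adjusted p up to 0.138 in the others). Bdnf, a neurotrophin gene, measured -0.01, 0.31 and 0.02 with NMP peptides plus APV, against 1.61, 1.18 and 0.62 with PK-cleaved peptides. PK-cleaved replicate 3 was the closest to the APV libraries, and the difference of -1.03 was not called (SE 0.34, adjusted p = 0.171). Vgf, a secreted neuropeptide precursor gene, had -1.30 (adjusted p = 0.0614). The G-protein regulator genes Rgs2 and Rgs4 had -0.73 each (adjusted p = 0.0658 and 0.0818). Ppp1r10, a protein phosphatase subunit gene, was the 1 effector that rose, at 3.51, 3.51 and 3.55 with NMP peptides plus APV, against 3.16, 3.27 and 3.24 with PK-cleaved peptides. That gap was 0.30 (adjusted p = 0.0435), and it was not called without any 1 of the 6 libraries (0.0604 to 0.155). NMP peptides alone stood 0.39 above PK-cleaved peptides for this gene (adjusted p = 0.0446, 1 of 9 genes called there, 0.0827% of those tested).

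Clock output genes were called in both directions. Nfil3 encodes a basic leucine zipper repressor that competes with the PAR bZIP activators, among them Tef, for the same sites. It measured 2.61, 2.66 and 2.46 with NMP peptides plus APV, against 3.33, 2.99 and 3.21 with PK-cleaved peptides, 3.81, 3.73 and 3.82 with NMP peptides alone, and 3.18 and 2.97 in DMSO. The APV libraries were the lowest of all 14 (1.51-fold lower than PK-cleaved, log2 difference -0.60, SE 0.11, adjusted p = 0.0181). Tef measured 5.07, 5.02 and 5.14 with NMP peptides plus APV, against 4.46, 4.55 and 4.34 with PK-cleaved peptides. It rose 1.55-fold with no overlap (log2 difference 0.63, SE 0.11, adjusted p = 0.0119). Arntl, which encodes the clock activator BMAL, measured 1.48, 1.56 and 1.52 with NMP peptides plus APV, against 2.10, 1.84 and 2.08 with PK-cleaved peptides. It fell by 0.49 (adjusted p = 0.0166). These were the 3 called genes of 15 tested clock output and PAR bZIP genes, whose median was 0.07, beside 1.39% called over all tested genes. Nr1d2, a repressor of Arntl, had 0.41 (adjusted p = 0.0674). Nfil3 and Arntl were not called without NMP peptides plus APV replicates 1 or 3 or PK-cleaved replicates 1 or 3 (adjusted p up to 0.0909 and 0.082), and Tef without NMP peptides plus APV replicate 3 or PK-cleaved replicate 3 (up to 0.064).

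Stress-response and kinase-feedback genes are given beside a background of 5926 of 10877 tested genes below 0 and 1.39% called. Of 22 tested genes of the integrated stress and unfolded protein responses, 20 were below 0, with a median of -0.29, and 1 was called. That gene was Atf4, the translationally controlled activator of the pathway, at 6.73, 7.04 and 6.30 with NMP peptides plus APV, against 7.40, 7.29 and 7.51 with PK-cleaved peptides. The APV libraries were the more scattered, and all lay below the PK-cleaved ones (1.64-fold lower, adjusted p = 0.0449). Atf4 was called in 1 of the 6 fits without a library (NMP peptides plus APV replicate 2 left out, adjusted p up to 0.151 in the others). Its targets Chac1, Trib3 and Ddit3 had -1.39, -1.14 and -0.90, not called (adjusted p = 0.0658, 0.238 and 0.317). NMP peptides plus APV replicate 3 was the lowest library for each of them, and DMSO replicate 3 was also low, so they varied within groups. Of 14 MAP kinase feedback regulators 10 lay below 0, with a median of -0.25. Dusp7, a phosphatase gene acting on MAP kinases, fell by 0.43 (adjusted p = 0.0435), was called in 1 of the 6 fits without a library (NMP peptides plus APV replicate 1 left out, adjusted p up to 0.156 in the others) and had -0.37 without a call after the length and GC correction described below (adjusted p = 0.0844).

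The receptor that APV blocks showed no called change in its own mRNAs. Of 4 tested NMDA receptor subunits 0 were called, with Grin1, the obligatory subunit, at 0.06 (SE 0.13). Grin2b measured 5.01, 5.65 and 4.68 with NMP peptides plus APV, against 3.74, 4.50 and 3.96 with PK-cleaved peptides. The groups did not overlap, but both were scattered and the difference of 1.05 was not called (SE 0.30, adjusted p = 0.114). AMPA and kainate receptor subunits (9 tested, median 0.04, smallest p for Gria1) and GABA-A receptor subunits (12 tested, median 0.08, smallest p for Gabra5) had 0 called genes. The 35 proteasome subunits also had 0 called genes, within a narrow range from -0.18 to 0.09. Of these, 32 lay below 0, beside 5926 of the 10877 tested genes, with a median of -0.07, and Psmd3 had the smallest p (-0.17, adjusted p = 0.205). The 3 Gpm6 proteolipids, membrane proteins that have been reported to associate with the neuronal membrane proteasome, had a median of 0.13 and 0 calls.

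The remaining lists had 0 called genes as well. Medians were -0.01 for 12 heat shock chaperones, -0.02 for 9 alpha-arrestin and glucose response genes, -0.03 for 22 sterol synthesis genes and -0.08 for 8 replication-dependent histone genes. Among cell type markers, 15 of 17 tested astrocyte genes lay above 0 with a median of 0.15, and 9 of 14 inhibitory neuron genes below 0 with a median of -0.14. Excitatory neuron markers (15 tested) had a median of 0.04, oligodendrocyte lineage markers (8) of 0.06, fibroblast and meningeal markers (3) of -0.11 and proliferating cell markers (10) of 0.10. In each of these lists a p that misses the threshold does not show that the values were equal.

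**Figure D3:**
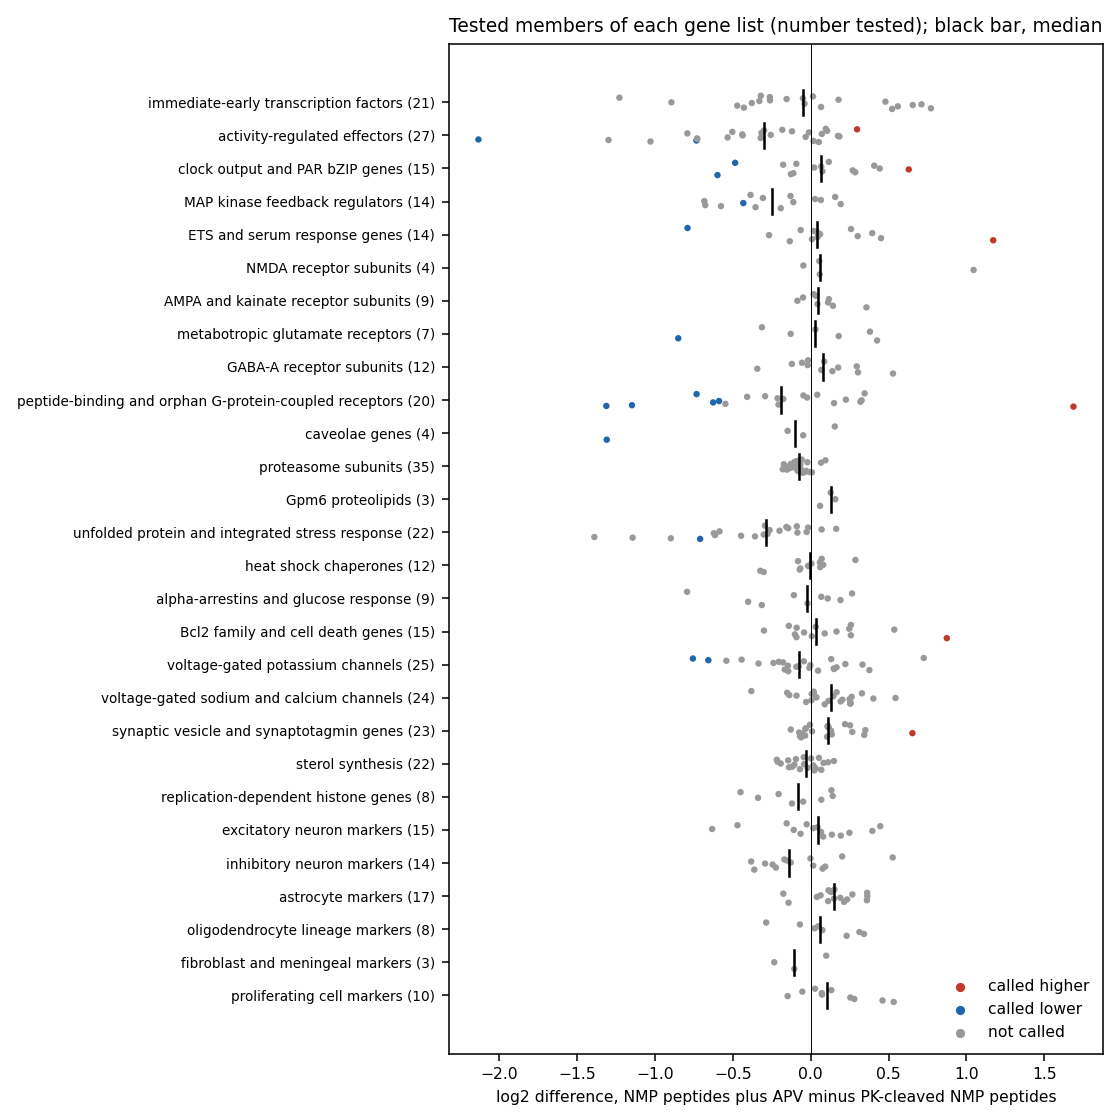
Log2 difference, NMP peptides plus APV minus PK-cleaved NMP peptides (x axis), of each tested member of 28 gene lists with 3 or more tested genes, 1 list per row with the number tested in brackets. Red points are called higher, blue called lower, grey not called, and black bars are medians. The activity-regulated effectors and the stress response list have medians near -0.3, and the 35 proteasome subunits form a narrow cluster just below 0.

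The called genes were then set beside the other groups. NMP peptides plus APV against DMSO or NMP peptides alone, and NMP peptides alone against PK-cleaved peptides, share libraries with this comparison, and their values are given only side by side. For NMP peptides plus APV against DMSO the log2 differences were 1.08 for Elk1, 1.39 for Slc44a5, -2.28 for Nppc, -1.30 for Avpr1a and -1.42 for Cav1. Against NMP peptides alone they were 1.25, 1.48, -2.11, -1.18 and -1.38 for the same genes in that order. For NMP peptides alone against PK-cleaved peptides they were -0.08, 0.00, -0.03, -0.13 and 0.07. The values with APV were thus similar against each of these groups, which differed little among themselves for these genes. The number of called genes was 68 (0.625%) against DMSO, of which 19 were higher (0.175%) and 49 lower (0.45%). It was 156 (1.43%) against NMP peptides alone, 60 higher (0.552%) and 96 lower (0.883%). For PK-cleaved peptides against DMSO limma called 0 genes, with 114 at an unadjusted p under 0.05.

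Bicuculline against DMSO shares no library with this comparison, and gives the called genes' values under raised network activity. It called 51 genes (0.469%), all higher. Of the 66 genes higher with NMP peptides plus APV, 0 were called there, 14 lay above 0 and 52 below, and the median was -0.08. Of the 85 lower genes, 1 was called, 38 lay above 0 and 47 below, and the median was -0.02, beside -0.03 over all tested genes. The called one was Nfil3, which measured 4.12, 4.21 and 4.53 with bicuculline, against 3.18 and 2.97 in DMSO (log2 difference 1.21, adjusted p = 0.000129). Nppc (0.87), Rem2 (0.70), Ctgf (0.64) and Nptx2 (0.54) lay above 0 in bicuculline without a call. NMP peptides alone against DMSO called 2 genes (0.0184%), and 0 of the 151 were among them. There, 14 of the 66 and 20 of the 85 lay above 0, with medians of -0.06 and -0.07, beside -0.04 over all tested genes. The share of all tested genes above 0 was not computed for bicuculline or NMP peptides alone against DMSO.

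**Figure D4:**
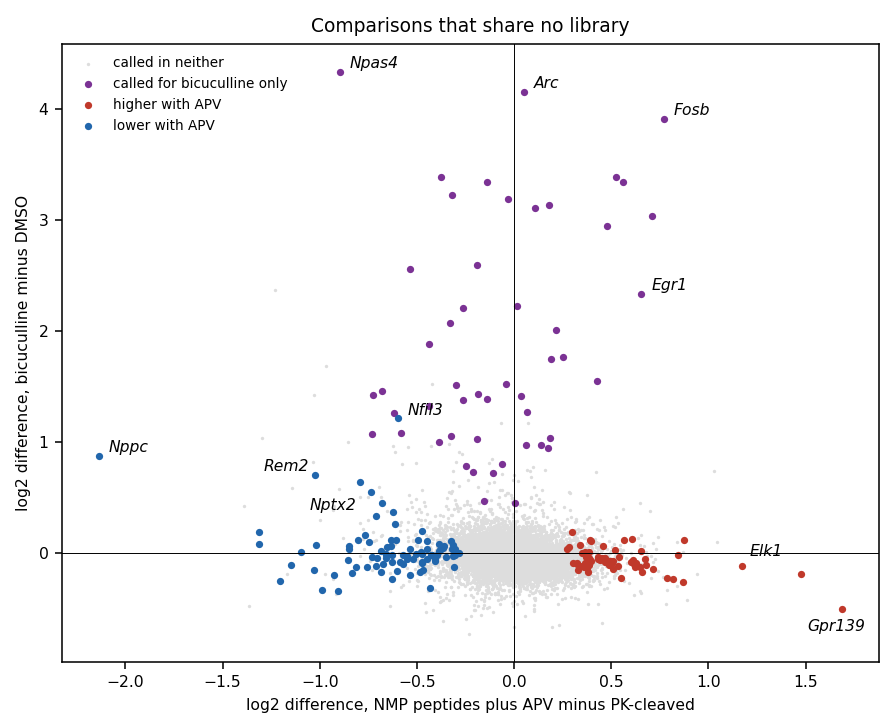
Each point is a tested gene, with the log2 difference of NMP peptides plus APV minus PK-cleaved NMP peptides on the x axis and of bicuculline minus DMSO on the y axis, comparisons without a shared library. Red and blue points are the genes called higher and lower with APV, and purple points are those called for bicuculline alone of these comparisons. The red and blue points have medians of -0.08 and -0.02 on the y axis, beside -0.03 over all tested genes. Nfil3 is the 1 gene called in both, at 1.21, and Nppc (0.87), Rem2 (0.70), Ctgf (0.64) and Nptx2 (0.54) are blue points well above 0 without a call, while purple points spread to both sides of 0 on the x axis.

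The called genes differed in length and base composition. Median exon length was 6431 bases for the higher genes and 3700 for the lower ones, beside 4685 over all tested genes. Median GC content was 46.6%, 52.8% and 49.8% in the same sets. Libraries also differed in how signal followed length. The Spearman correlation between a library's deviation from the mean of all 14 libraries and exon length, across genes, was 0.358, -0.011 and 0.344 for NMP peptides plus APV replicates 1 to 3, and -0.594, 0.353 and 0.017 for PK-cleaved replicates 1 to 3. PK-cleaved replicate 1 stood farthest from 0. When exon length and GC content were removed from each library, 185 genes were called (78 higher and 107 lower), and 125 of the 151 remained called, 56 higher and 69 lower. That fit covered the 10572 genes with a known exon length, among them 64 of the 66 higher and 82 of the 85 lower genes. Ctgf had no known length and was not tested there. Elk1, Slc44a5, Hrk, Nppc, Avpr1a, Cav1 and Grm2 stayed called, with log2 differences of 1.17, 1.42, 0.87, -2.08, -1.26, -1.28 and -0.82. Of the named called genes Dusp7 (-0.37), Crhr1 (-0.50) and Cbln1 (-0.34) lost their call, with adjusted p of 0.0844, 0.0739 and 0.0591, at log2 differences of -0.43, -0.59 and -0.41 without the correction. This correction was added after the data were seen.

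**Figure D5:**
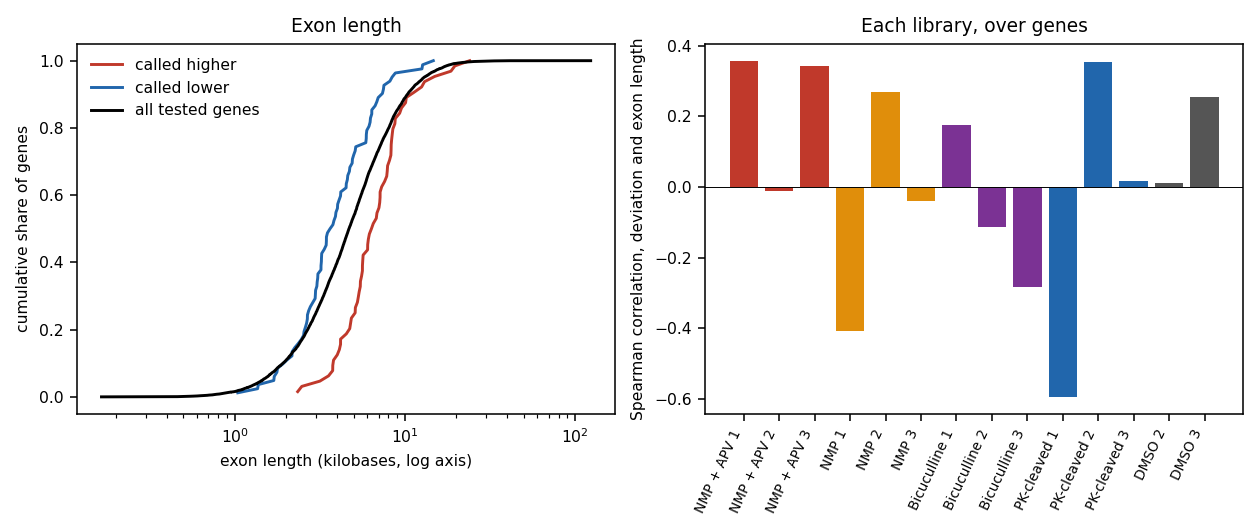
Left, cumulative share of genes (y axis) by exon length in kilobases (log x axis) for genes called higher, called lower and all tested genes. Right, the Spearman correlation across genes between each library's deviation from the mean of all 14 libraries and exon length, 1 bar per library. The higher genes lie to the right of all genes, with a median of 6431 bases, and PK-cleaved replicate 1 has the lowest bar at -0.594.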

How the data were processed

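RNA of primary cortical neuron cultures was sequenced in 14 ribosome-depleted libraries, per the labels' protocols. The deposited score of each feature is a log2 signal made by the authors and quantile-normalised, as the shared sorted values show. Base 2 was checked: antilogged values times exon kilobases sum to 1180000 to 1270000 per library. Per the submitters' processing notes the genome was GRCm38.p6. Which aligner, counting tool and annotation were used is not given in the sources used here. Among 45802 features, 18128 had a value. The lowest 40% by mean were dropped, leaving 10877 genes.

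All 14 libraries entered 1 limma fit (version 3.58.1, R 4.3.3) of group means, with a variance trend and empirical Bayes moderation. The two-sided tests were adjusted (Benjamini-Hochberg p-values) over all tested genes of a comparison. The procedure was tested on simulated data. Marker sums add antilogged signals. Named were index genes, the 15 highest and 15 lowest called genes without overlap, up to 6 called members per list, or the member with the smallest p, without some that are not reported here, and genes chosen after their values were seen: those the text marks so, and Atf3, Chac1, Ddit3, Egr2, Gfap, Grin1, Junb, Nr1d2, Rgs2, Rgs4, Trib3 and Vgf. Members and lists were chosen with earlier results of these data known. Gene positions and promoters are from RefSeq on GRCm38, and exon lengths and GC content from GENCODE. Alternatives were other filters, centring, array weights, no variance trend, fewer libraries in the fit, a replicate block, DMSO averaged into the control and 1 library left out.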

Additional observations from a re-analysis of the deposited data

How the results depend on the processing

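The 151 calls (66 higher, 85 lower) became 80 (44 and 36) with the stricter filter, 91 (37 and 54) with a replicate block, 55 (18 and 37) with only the 6 compared libraries in the fit, 13 (5 and 8) with both, 571 (252 and 319) with array weights and 259 (88 and 171) with PK-cleaved peptides and DMSO averaged as the control. No filter gave 131, median centring 150, no variance trend 135 and the length and GC correction 185. Leaving out 1 library gave 53 to 127 calls, 17 to 68 higher and 34 to 59 lower. The stricter filter left 7252 genes in the test, so genes that it took out could not be called. All 80 of its calls were among the 151. Of the named genes still tested there, 52 kept their status, called or not, and 1 lost its call. No called gene changed direction in any of these fits, and the cause of the changes in count was not tested. Same-numbered libraries deviated with correlations of -0.287, -0.323 and 0.109 across genes, and libraries 1 and 2 of each group correlated best with another number. Libraries also differed in how signal followed exon length, as given above. These correlations therefore cannot decide whether the numbers pair the libraries.

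Among uncalled genes, the sign turned with array weights for Egr4 (0.0056). Leaving out 1 library gave -0.2357 to 0.2573 for Arc (negative without NMP peptides plus APV replicate 2 or PK-cleaved replicate 3). It gave -0.0337 to 0.1901 for Grin1 (negative without PK-cleaved replicate 3) and -0.4951 to 0.415 for Gfap (positive without PK-cleaved replicate 3). Gfap, an astrocyte gene, measured 2.61, 2.76 and 2.77 with NMP peptides plus APV, against 2.45, 2.15 and 3.97 with PK-cleaved peptides. Depth is unknown, so limits of detection could not be given. The alternatives for linear values and counts did not apply.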

Other observations

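Features without a value in 1 of the groups were outside the test. With values in all 3 libraries of NMP peptides plus APV and in no PK-cleaved library there were 24 features, the highest at -1.39 on the log2 signal scale. With values in all 3 PK-cleaved libraries and in no library of NMP peptides plus APV there were 27, the highest at -2.26. All lay far below the common median of 2.19. Kctd4, whose product belongs to a family of potassium channel tetramerisation domain proteins, measured 3.13, 2.73 and 3.12 with NMP peptides plus APV, against 2.30, 2.32 and 2.19 with PK-cleaved peptides, and was chosen after its values were seen. The groups did not overlap, but the log2 difference of 0.73 was not called (SE 0.21, limma adjusted p = 0.128).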
